A study of Mus musculus with 8 samples.

Results

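The angiopoietins and the vascular endothelial growth factors (VEGFs), with their receptors, were followed in whole retinas of adult mice that had lost most of their Rbfox2, an RNA-binding protein that regulates alternative splicing. The set holds 10 genes, found by their symbol among the 17500 genes of the deposited table: the ligands Angpt1, Angpt2, Vegfa and Vegfb and the receptors Tek, Tie1, Flt1, Kdr, Flt4 and Nrp1. They were chosen by pathway with their fold changes and adjusted p values in this same contrast already known, so their differences between the groups are given as a description and not as independent tests. RNA was sequenced from 8 retinas, each from a different mouse and each aged 6 months. The 4 Rbfox2-/- mice (M893, M901, M902 and M909, which the labels call Rbfox2 KD) carried floxed Rbfox2 on both alleles and a tamoxifen-inducible Cre. The 4 controls (M833, M894, M896 and M898) were, by the study's methods, heterozygous for the floxed allele. The labels give C57BL/6J as the strain background of every mouse. The labels give tamoxifen over 4 months for every mouse, controls included, whereas the study's methods describe a short course by mouth with the retinas taken months later. Levels are given as CPM, counts per 1000000 counts of the scaled library, and values are listed in the order of the mice given here, controls first.

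Angiopoietin-1 activates the receptor tyrosine kinase TIE2, the product of Tek, on endothelial cells and keeps vessels quiescent, while angiopoietin-2 binds the same receptor and mostly opposes that signal, which loosens vessels and readies them for remodelling. TIE1 is a related receptor that binds neither ligand tightly on its own and modulates TIE2. VEGF-A drives endothelial growth and permeability through VEGFR2 (Kdr), VEGFR1 (Flt1) acts largely as a decoy that binds VEGF-A and VEGF-B, VEGFR3 (Flt4) is the receptor of the lymphatic VEGFs, and neuropilin-1 (Nrp1) is a co-receptor. In the retina, VEGF-A comes mainly from glia and neurons, Angpt2 has been localized to endothelial cells and horizontal cells, and Kdr is also present on neurons and Müller glia.

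Libraries held between 160630226 and 211283591 counts assigned to genes, so that 3 counts (the detection floor used here) corresponded to 0.0142 to 0.0187 CPM, and the lowest count of any member in any library was 167 (Angpt1). Rbfox2 itself measured 144, 149.8, 157 and 148 CPM in the controls and 53.9, 58.9, 53.6 and 59.4 CPM in the Rbfox2-/- mice, or 37.7% of the control level (log2 fold change −1.41, SE 0.046, Benjamini-Hochberg adjusted p = 5.51e-07 in the edgeR quasi-likelihood fit). The 8 retinal identity genes were present in all libraries, with a median log2 fold change of 0.05. None passed in edgeR. In 3 the unadjusted p was under 0.05 (13.3% of all genes) and the groups did not overlap (7.03% of all genes). DESeq2 called 2 rod genes higher, Gnat1 (0.19) and Pde6b (0.13), and called 2.77% of all genes. Transcripts of Xist, made from the inactive X chromosome of females, were abundant in M901 and M902, at 277506 and 275967 counts, against 312 to 426 in the other 6 libraries. Both lay apart from the rest on the first principal component (40.5% of the variance) and M909 lay apart on the second (19.2%). M901 and M902 also had the least Best2, a marker of ciliary tissue, which can be carried over at dissection. The study reports Best2 as lower in Rbfox2-/- retinas by RNA-seq and by real-time PCR. Whether its transcripts came from carried-over tissue was not tested. Best2 measured 0.150 and 0.208 CPM in M901 and M902, 4.26 and 4.14 CPM in M893 and M909, and at least 5.13 CPM in the controls. Its level in every Rbfox2-/- retina was thus below that in every control. What sets the first component was not tested. Sex and genotype were partly confounded, and results are also given without M901 and M902, which leaves out the Xist difference. Best2 was still lower in the Rbfox2-/- mice without M901 and M902, with a log2 fold change of −1.09.

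Angpt2 was the member with the largest difference. It measured 3.20, 3.95, 3.53 and 3.82 CPM in the controls and 6.75, 5.93, 5.67 and 5.60 CPM in the Rbfox2-/- mice, from 666 to 699 counts per control library and 900 to 1187 per Rbfox2-/- library. Every Rbfox2-/- retina was above every control. The group means were 3.63 ± 0.335 and 5.99 ± 0.526 CPM (SD, n = 4 each), a fold of 1.65 (log2 fold change 0.72, SE 0.095), and the adjusted p over 16797 genes was 0.0277 in edgeR's quasi-likelihood test, which placed Angpt2 as number 11 of the 11 genes past the threshold. It was the only member among them, against a background of 0.0655% of all genes tested (0.0357% called higher and 0.0298% called lower). With DESeq2, 2 members passed, Angpt2 (adjusted p = 1.21e-09) and Flt1 (adjusted p = 0.00359), against a background of 2.77%. The edgeR call for Angpt2 did not hold when a control, M896 or M898, was left out (adjusted p = 0.160 and 0.107), nor without any 1 of M893, M901, M902 and M909 (0.103, 0.147, 0.0668 and 0.0547). Without both M901 and M902 the log2 fold change was 0.76 with an adjusted p of 0.262 in edgeR.

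Angpt2 lies on the minus strand of chromosome 8, at 18690263 to 18741562 in GRCm38, inside the span of Mcph1 (18595131 to 18803189, plus strand), a gene of chromosome condensation. The annotated exons of the 2 genes share 0 bases. Mcph1 measured 7.19, 6.90, 7.01 and 6.38 CPM in the controls and 6.22, 6.56, 6.70 and 6.50 CPM in the Rbfox2-/- mice, with a log2 fold change of −0.08 (SE 0.063, adjusted p = 0.610 in edgeR's quasi-likelihood test). The host gene's levels overlapped between the groups. Any part of Mcph1 reads in the Angpt2 counts was not tested. Whether reads were counted by strand is not given in the sources used here.

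Angpt1, the agonist, was the member with the lowest level. It measured 1.18, 1.13, 1.27 and 1.48 CPM in the controls and 1.06, 1.01, 1.05 and 1.20 CPM in the Rbfox2-/- mice. The groups overlapped, and the log2 fold change was −0.23 (SE 0.13, adjusted p = 0.487 in edgeR's quasi-likelihood test). Its exons (chromosome 15, 42424723 to 42676977, minus strand) share 737 bases with the antisense gene Gm17473, which without strand cannot be told apart from it. The quotient of Angpt2 over Angpt1 CPM was 2.71, 3.51, 2.78 and 2.58 in the controls and 6.35, 5.89, 5.39 and 4.67 in the Rbfox2-/- mice, with means of 2.90 ± 0.419 and 5.57 ± 0.719. The 2 ranges did not overlap, but the quotient holds the measure by which the set was chosen.

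The VEGF ligands were abundant and differed little between the groups. Vegfa (chromosome 17, 46016993 to 46032369, minus strand) measured 155, 178, 142 and 138 CPM in the controls and 174, 153, 167 and 170.0 CPM in the Rbfox2-/- mice. The groups overlapped, with means of 153 ± 18.03 and 166 ± 8.95 CPM and a log2 fold change of 0.11 (SE 0.076, adjusted p = 0.546 in edgeR's quasi-likelihood test). Vegfb, a ligand of VEGFR1 linked to fatty acid uptake and cell survival, measured 45.5, 54.5, 52.2 and 56.7 CPM in the controls and 55.1, 52.5, 49.8 and 51.1 CPM in the Rbfox2-/- mice (chromosome 19, 6982473 to 6987651, minus strand). All Rbfox2-/- values of Vegfb lay within the control range, and its log2 fold change of −0.0022 (SE 0.066) changed sign with the method. A difference in Vegfa or Vegfb of this size is within the spread between mice, which does not show that the groups were alike.

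All 6 receptors had negative fold changes, and 1 of them, Flt1, had groups that did not overlap. Flt1 (chromosome 5, 147561604 to 147726011, minus strand) measured 129, 131, 139 and 137 CPM in the controls and 107, 116, 98.5 and 121 CPM in the Rbfox2-/- mice. Every Rbfox2-/- retina was below every control, with means of 134 ± 4.92 and 111 ± 10.1 CPM. Its log2 fold change was −0.28 (SE 0.061), or 82.6% of the control level, with rank 123 of all genes by p and an adjusted p of 0.145 in edgeR's quasi-likelihood test. The study lists Flt1 among its top differentially expressed genes, with the sign it gives to Cry2 and Per1, which it describes as upregulated. The deposited counts of Flt1 go the other way. Flt1 and Angpt2 were the 2 members whose groups did not overlap, 20% of the set, against 7.03% of all genes tested (3.64% with all Rbfox2-/- mice above, as Angpt2, and 3.39% with all below, as Flt1). Without M901 and M902, Flt1 had a log2 fold change of −0.24.

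Kdr, the main signalling receptor for VEGF-A, was the most abundant receptor and the one with the smallest difference. It measured 209.6, 184, 182 and 193 CPM in the controls and 189, 171, 172 and 221 CPM in the Rbfox2-/- mice (chromosome 5, 75932827 to 75978458, minus strand). The highest value came from an Rbfox2-/- retina and so did the lowest, and the log2 fold change was −0.03 (SE 0.081, adjusted p = 0.908 in edgeR's quasi-likelihood test). Without M901 and M902 it was 0.09. The quotient of Flt1 over Kdr CPM averaged 0.700 ± 0.0626 in the controls (range 0.616 to 0.767) and 0.592 ± 0.0611 in the Rbfox2-/- mice (range 0.548 to 0.682), and the ranges overlapped.

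Tek, Tie1, Nrp1 and Flt4 were low and overlapped between the groups. Tek (chromosome 4, 94739289 to 94874976, plus strand) measured 4.98, 6.96, 5.70 and 5.67 CPM in the controls and 4.996, 5.63, 3.75 and 5.30 CPM in the Rbfox2-/- mice. Tie1 (chromosome 4, 118471191 to 118490061, minus strand) measured 3.16, 4.60, 3.81 and 4.57 CPM against 3.59, 3.27, 2.67 and 3.13 CPM. In both genes M902 was the lowest of the 8 retinas, and M833 was the lowest control. Nrp1 (chromosome 8, 128358604 to 128503363, plus strand) ranged from 13.0 to 17.3 CPM in the controls and from 11.1 to 14.9 CPM in the Rbfox2-/- mice, and Flt4 (chromosome 11, 49609263 to 49652739, plus strand) from 9.97 to 11.6 and from 8.36 to 11.9 CPM. M902 was again the lowest retina for both. The log2 fold changes were −0.35 (SE 0.14) for Tie1, −0.24 (SE 0.14) for Tek, −0.24 (SE 0.11) for Nrp1 and −0.15 (SE 0.10) for Flt4, with adjusted p values from 0.338 to 0.557 in edgeR's quasi-likelihood test. Without M901 and M902 they were −0.27, −0.18, −0.14 and −0.03. In all, 8 of the 10 members had a negative log2 fold change, while over all genes 8509 were positive and 8288 negative.

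**Figure D1:**
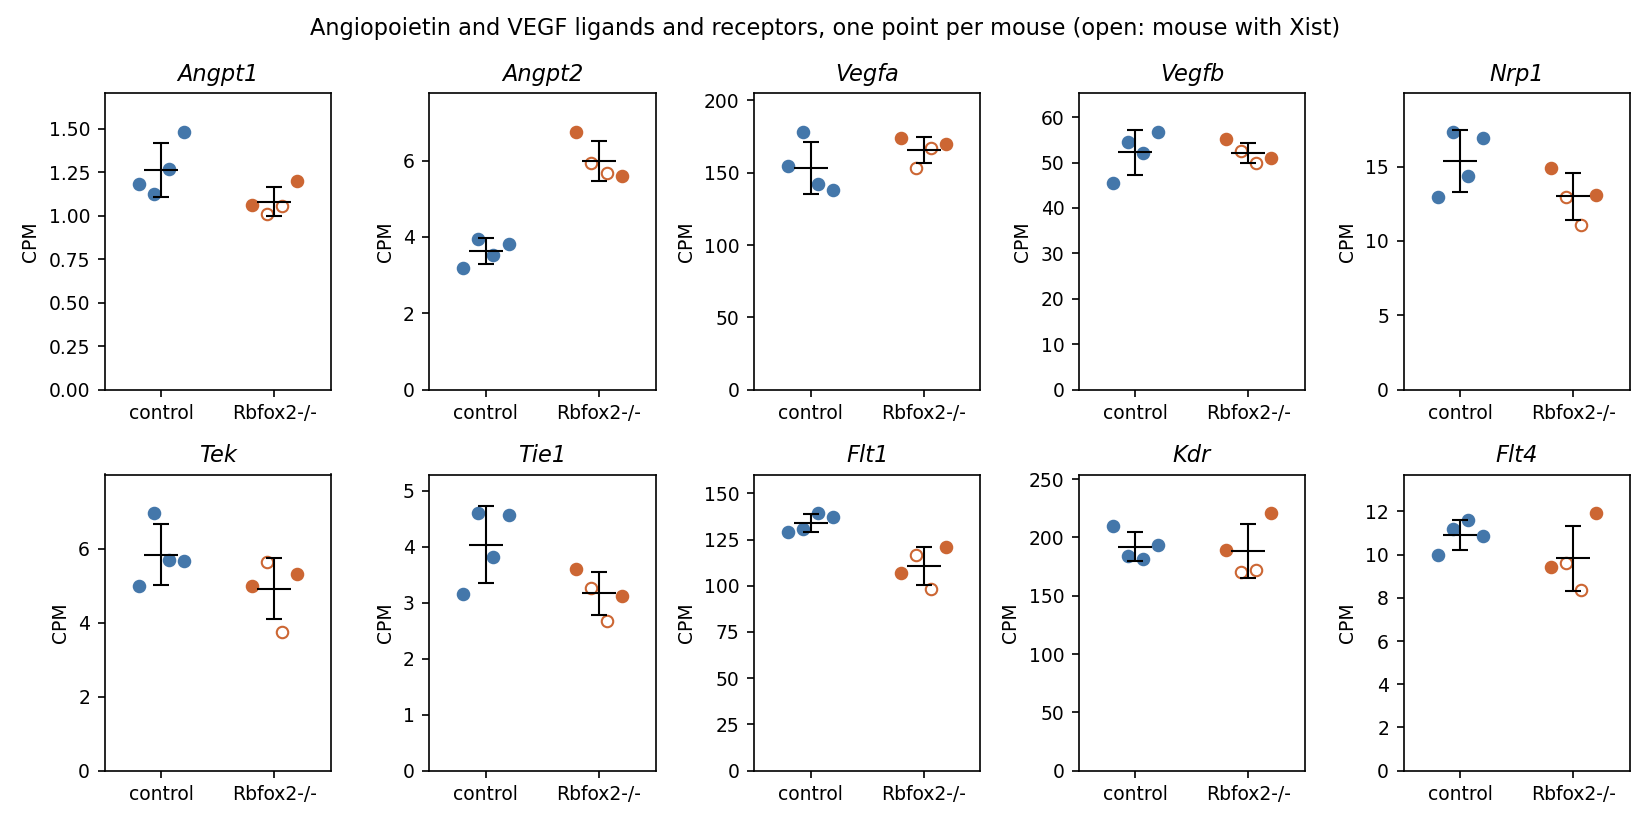
CPM of each of the 10 genes (vertical axes, from 0, a separate scale per gene) in control and Rbfox2-/- retinas, 1 point per mouse, with the mean and SD of each group and open points for the 2 mice with Xist. The Rbfox2-/- points of Angpt2 (5.60 to 6.75 CPM) are all above the control points (3.20 to 3.95 CPM), those of Flt1 are all below, and the groups of the other 8 genes overlap.

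Rbfox proteins bind RNA at UGCAUG, so the letters TGCATG were searched, on the transcribed strand, in the longest annotated 3′ untranslated region (UTR) of each gene in GENCODE M21. Of 14877 genes with such a region, 35.8% held the letters, and 3 of the 10 members did: Angpt1, Tie1 and Flt1. Members held 0.231 matches per kilobase and all genes 0.364. Angpt2, the called member, held 0 in 1785 bases, where 45.1% of genes with a UTR within 20% of that length held at least 1. Flt1 held 2 in a UTR of 3971 bases, as did 40.6% of genes of like length. That UTR belongs to a shorter Flt1 transcript of 688 codons, which ends 73555 bases before the transcript of 1333 codons that encodes the whole receptor. The UTR of the latter, 2616 bases, held 1 match. The searched Tie1 UTR, 2240 bases, also belongs to a shorter transcript, of 647 codons. The Tie1 transcript of 1134 codons has a UTR of 330 bases, which held the same match. For Vegfa, the searched UTR of 1865 bases belongs to a transcript of 146 codons. The Vegfa transcript of 392 codons has a UTR of 315 bases, and neither UTR held a match. The matches are shown since they are the places in the searched UTRs where these members carry the letters of the binding element. Introns and coding exons were not searched, so a member without a match here may carry the letters elsewhere. Each is given 5′ to 3′ on the minus strand of GRCm38 with the element in capitals: for Angpt1 chr15:42426067-42426096, for Tie1 chr4:118471245-118471274, for the shorter Flt1 transcript chr5:147638018-147638047 and chr5:147636108-147636137, and for the whole Flt1 receptor chr5:147563861-147563890. A match is a description of the letters and not a bound site.
Angpt1: ttgtacagatctTGCATGtatttgcatatg
Tie1: cctaaagcagcaTGCATGttactaacaccc
Flt1, shorter transcript, first: aaactatttaagTGCATGcctttttaaata
Flt1, shorter transcript, second: ttgtaatgagcaTGCATGcacaagtcatta
Flt1, whole receptor: ttagctcatggcTGCATGcactgacctgct

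Levels were compared between genes only per transcript length, as FPKM, fragments scaled to transcript length and to library size. On this scale Vegfa was highest (mean of 8 retinas 60.5 FPKM), then Vegfb (44.2), Kdr (34.9), Flt1 (19.5), Nrp1 (2.40), Flt4 (1.78), Angpt2 (1.35), Tek (1.14), Tie1 (0.93) and Angpt1 (0.27). The highest and the lowest gene differed 222.7-fold. Of the 9 pairs of neighbours in this order, 4 had ranges over the 8 mice that did not overlap: Vegfa above Vegfb, Kdr above Flt1, Flt1 above Nrp1 and Tie1 above Angpt1. The ranges of the other 5 pairs overlapped. Read within each mouse, Vegfb was above Kdr, Nrp1 above Flt4 and Tek above Tie1 in 8 of 8 mice, Flt4 above Angpt2 in 5, and Angpt2 above Tek in 4, which were the Rbfox2-/- mice. On the FPKM scale both angiopoietins and their receptors Tek and Tie1 were the lowest 4 of the set.

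Kdr and Flt1 stood well above the genes that define endothelial cells. Among 16 endothelial markers, Ly6c1 (7.10 FPKM) and Esam (7.04 FPKM) were highest and Erg (0.578 FPKM) was lowest, with a median of 2.79 FPKM. Kdr was at 4.91 times and Flt1 at 2.75 times the level of the highest marker, per length. Tek and Tie1, by contrast, were among the low ones: 12 of the 16 markers were above Tek and 13 were above Tie1.

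**Figure D2:**
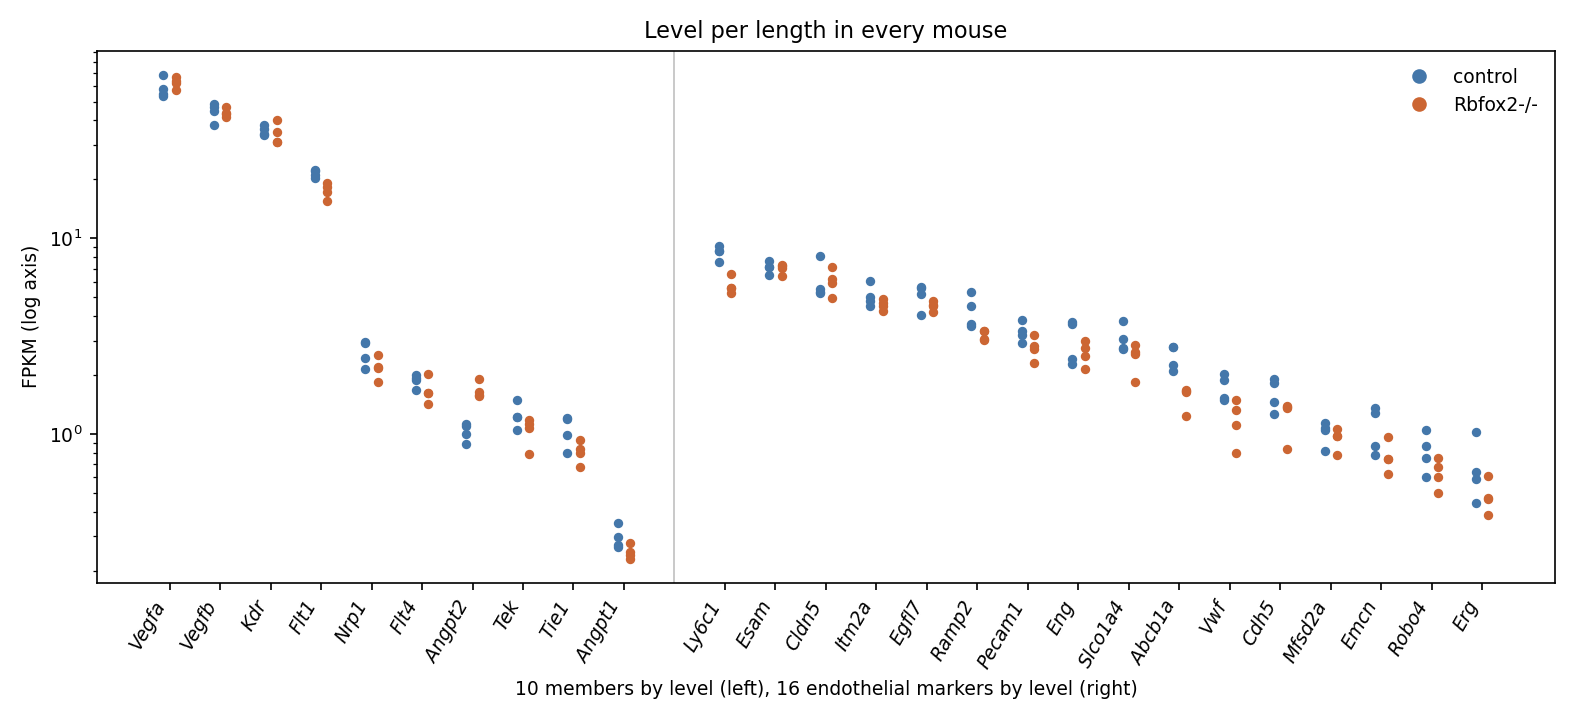
FPKM on a log axis for the 10 genes in the order of their mean level (left) and for 16 endothelial markers (right), with 1 point per mouse and control and Rbfox2-/- mice side by side. Vegfa, Vegfb, Kdr and Flt1 lie above every endothelial marker, with mean levels from 19.5 to 60.5 FPKM against 7.10 FPKM for the highest marker.

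Since whole retina was sequenced, fewer cells of a type and less RNA per cell cannot be told apart, and the endothelial markers were lower in the Rbfox2-/- mice along with the receptors. Of the 16 markers, 15 had a negative log2 fold change, with a median of −0.32 against 0.0016 over all genes tested. None passed the edgeR quasi-likelihood threshold, and 6 had an unadjusted p under 0.05 (13.3% of all genes did). In 4 the groups did not overlap (7.03% of all genes), and DESeq2 called 3 (2.77% of all genes). The nearest to the threshold were Ly6c1 (log2 fold change −0.55, SE 0.090), Abcb1a, a drug efflux pump of the blood-retina barrier (−0.65, SE 0.12), and Vwf, the clotting factor stored with angiopoietin-2 in endothelial granules (−0.54, SE 0.17), with adjusted p values of 0.0837, 0.0853 and 0.266. The summed level of the 16 markers was 108 to 140 CPM in the controls and 85.2 to 109 CPM in the Rbfox2-/- mice, so that the groups overlapped narrowly. Without M901 and M902 the median of the markers was −0.21, and with a surrogate variable in the fit it was −0.12. The part of this difference in the receptors' fold changes was not tested.

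Relative to the endothelial markers, the groups overlapped for every receptor and did not overlap for Angpt2. Tek per 1000 CPM of summed endothelial markers was 47.5 ± 3.01 CPM in the controls and 48.6 ± 3.22 CPM in the Rbfox2-/- mice, and Tie1 was 32.8 ± 2.57 and 31.5 ± 2.70 CPM. Flt1 per CPM of the markers was 1.10 ± 0.134 and 1.10 ± 0.0513, Nrp1 0.125 ± 0.00481 and 0.129 ± 0.0124, Flt4 0.0896 ± 0.00969 and 0.0976 ± 0.0103, and Kdr 1.59 ± 0.261 and 1.88 ± 0.228. Kdr had the largest gap between the means of the 6 receptors. Angpt2 per 1000 CPM of the markers was 29.6, 28.3, 31.1 and 29.6 CPM in the controls and 66.3, 54.3, 66.6 and 52.5 CPM in the Rbfox2-/- mice. The ratio of the group means was 2.02, and it was between 1.90 and 2.10 with each mouse left out in turn, without both M901 and M902 or with 4 defining markers as denominators. This quotient, too, holds the measure by which the set was chosen, and its denominators were chosen after seeing the data. The summed markers themselves averaged 123 CPM in the controls and 101 CPM in the Rbfox2-/- mice. The control values of Flt1 itself were tight, with a coefficient of variation of 3.67%, although the endothelial sum of the same 4 mice varied, so that their Flt1 quotient ranged from 0.935 to 1.23.

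**Figure D3:**
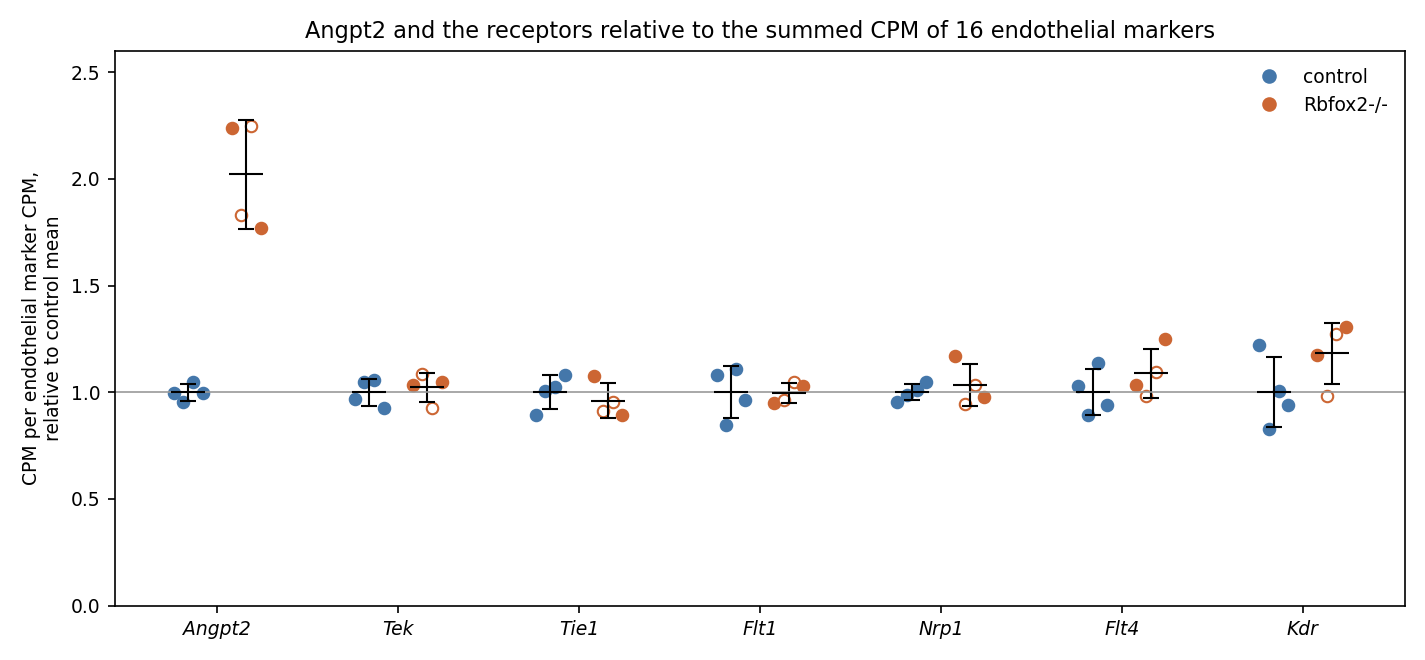
CPM of Angpt2 and of the 6 receptors divided by the summed CPM of 16 endothelial markers, relative to the control mean (line at 1), with 1 point per mouse, the mean and SD of each group, and open points for the 2 mice with Xist. The Angpt2 means differ 2.02-fold with no overlap, and the receptors overlap around the line.

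The other genes of both pathways did not pass the edgeR threshold. Over all genes tested, 13.3% had an unadjusted p under 0.05 in edgeR and DESeq2 called 2.77%. Of 5 further ligands and co-receptors tested (Vegfc, Figf, Pgf, Angpt4 and Nrp2), edgeR called 0 (2 had an unadjusted p under 0.05) and DESeq2 called 1, Figf, and the median log2 fold change was 0.0089. Pgf, placental growth factor and a ligand of VEGFR1, measured 1.02, 0.984, 1.03 and 1.65 CPM in the controls and 0.864, 0.591, 0.756 and 0.709 CPM in the Rbfox2-/- mice. Its groups did not overlap, and its log2 fold change was −0.68 (SE 0.20, adjusted p = 0.239). Figf, which encodes VEGF-D, had a log2 fold change of −1.42 (SE 0.47, adjusted p = 0.268), or −0.56 with a surrogate variable, with its highest value, 1.999 CPM, in the control M898. M898 also had the highest level of the pigment cell gene Dct, 224 CPM. Angpt4, the third angiopoietin gene, had a log2 fold change of 0.35. Among 5 angiopoietin-like genes, secreted proteins that do not bind TIE2, edgeR called 0 (2 had an unadjusted p under 0.05) and DESeq2 called 1, Angptl6. Angptl6 had groups that did not overlap (log2 fold change 0.32, SE 0.077, adjusted p = 0.179), and Angptl2 and Angptl4 had log2 fold changes of −1.36 and −1.13, or 0.02 and −0.37 with a surrogate variable in the fit. The control M898 had the highest Angptl2 level, 13.4 CPM against at most 6.81 CPM in the other mice.

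Genes downstream of the receptors did not pass the edgeR threshold, and their counts stand beside the same shares of all genes, 13.3% and 2.77%. Of 17 in Tie and VEGF receptor signalling, edgeR called 0 (4 had an unadjusted p under 0.05) and DESeq2 called 2, Plcg1 and Ptprb. The log2 fold change was negative in 12, and the median was −0.07. Plcg1, the phospholipase recruited by VEGFR2, had groups that did not overlap (log2 fold change −0.19, SE 0.042, adjusted p = 0.144), Ptprb, the endothelial phosphatase that restrains TIE2, had a log2 fold change of −0.40 (SE 0.12, adjusted p = 0.243), and Nfatc1, a transcription factor activated by VEGF, −0.32. Of 8 tip cell genes, which mark sprouting endothelium and include targets of VEGF, edgeR called 0 (2 had an unadjusted p under 0.05), DESeq2 called 1, Igfbp3, and the median was −0.09, or 0.02 without M901 and M902. Igfbp3, Pdgfb and Adm had log2 fold changes of −0.80, −0.29 and 0.42. Vegfa is a target of the hypoxia response, and of 16 genes of that response edgeR called 0 (1 had an unadjusted p under 0.05) and DESeq2 called 1, P4ha1, with 12 positive log2 fold changes and a median of 0.07. The nearest to the threshold was P4ha1, a collagen prolyl hydroxylase, at 0.21 (adjusted p = 0.228), and Ldha and Ndrg1 were at 0.10 and 0.09. All adjusted p values are from edgeR's quasi-likelihood test.

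Markers of the other cells that hold these ligands and receptors were read in the same fit. Among all genes, 13.3% had an unadjusted p under 0.05 in edgeR and 2.77% were called by DESeq2. Of 12 pericyte and smooth muscle markers, edgeR called 0 (7 had an unadjusted p under 0.05) and DESeq2 called 2, Vtn and Rgs5. They had a median log2 fold change of −0.43, with Myh11 at −1.62, Rgs5 at −0.34 and Vtn at 0.16. With a surrogate variable the median was −0.12 and Myh11 was at −0.50, and the highest Myh11 level, 13.4 CPM against at most 4.94 CPM elsewhere, was in the control M898. The summed level of all 12 was 805 to 878 CPM in the controls and higher, 906 to 937 CPM, in the Rbfox2-/- mice. Vtn alone made up 90.2% to 93.1% of that sum in the controls and 93.0% to 95.2% in the Rbfox2-/- mice. Without Vtn the sum was 59.4 to 85.3 CPM in the controls and 45.1 to 63.3 CPM in the Rbfox2-/- mice. Of 9 Müller glia and 4 astrocyte markers, edgeR called 0 (2 and 0 had an unadjusted p under 0.05) and DESeq2 called 1, Glul. Their medians were −0.04 and −0.11, with Glul at −0.17, Dkk3 at −0.16, Vim at −0.14, S100b at −0.27, Pax2 at −0.21 and Gfap at 0.15. Among 7 horizontal cell markers, Calb1, which encodes the calcium-binding protein calbindin, fell (78.0, 73.9, 77.3 and 75.7 CPM in the controls and 56.8, 60.5, 57.9 and 56.3 CPM in the Rbfox2-/- mice, log2 fold change −0.40, adjusted p = 0.00341, and 0.0501 without M901 and M902), and the median of the 7 was −0.05. The summed horizontal cell level was 270.0 to 279.7 CPM in the controls and 246 to 254 CPM in the Rbfox2-/- mice, but without Calb1 the sums of the other 6 markers overlapped, at 193 to 203 and 190.2 to 198 CPM. Among 7 microglia markers, Olfml3, a secreted matrix protein also made by other cells, rose (log2 fold change 0.52, adjusted p = 0.0277), a call that was lost with a sex covariate (adjusted p = 0.0954) and without both M901 and M902 (adjusted p = 0.204), and without any 1 of M896, M898, M893, M901 and M909, while the median of the 7 was −0.09. Of 11 pigment epithelium and ciliary markers, which can mark tissue carried over at dissection, neither tool called any (4 had an unadjusted p under 0.05 in edgeR). They had a median of −1.43, or −0.0038 with a surrogate variable in the fit, with Pmel, Tyrp1 and Dct at −2.13, −2.03 and −2.25, and summed to 117 to 491 CPM in the controls and 88.8 to 237 CPM in the Rbfox2-/- mice. The blood marker Alas2 was at −0.66, or −0.19 without M901 and M902 and 0.05 with a surrogate variable, with its highest level, 3.61 CPM, in M898. The part of these cells in the values of Angpt2 and the receptors was not tested.

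**Figure D4:**
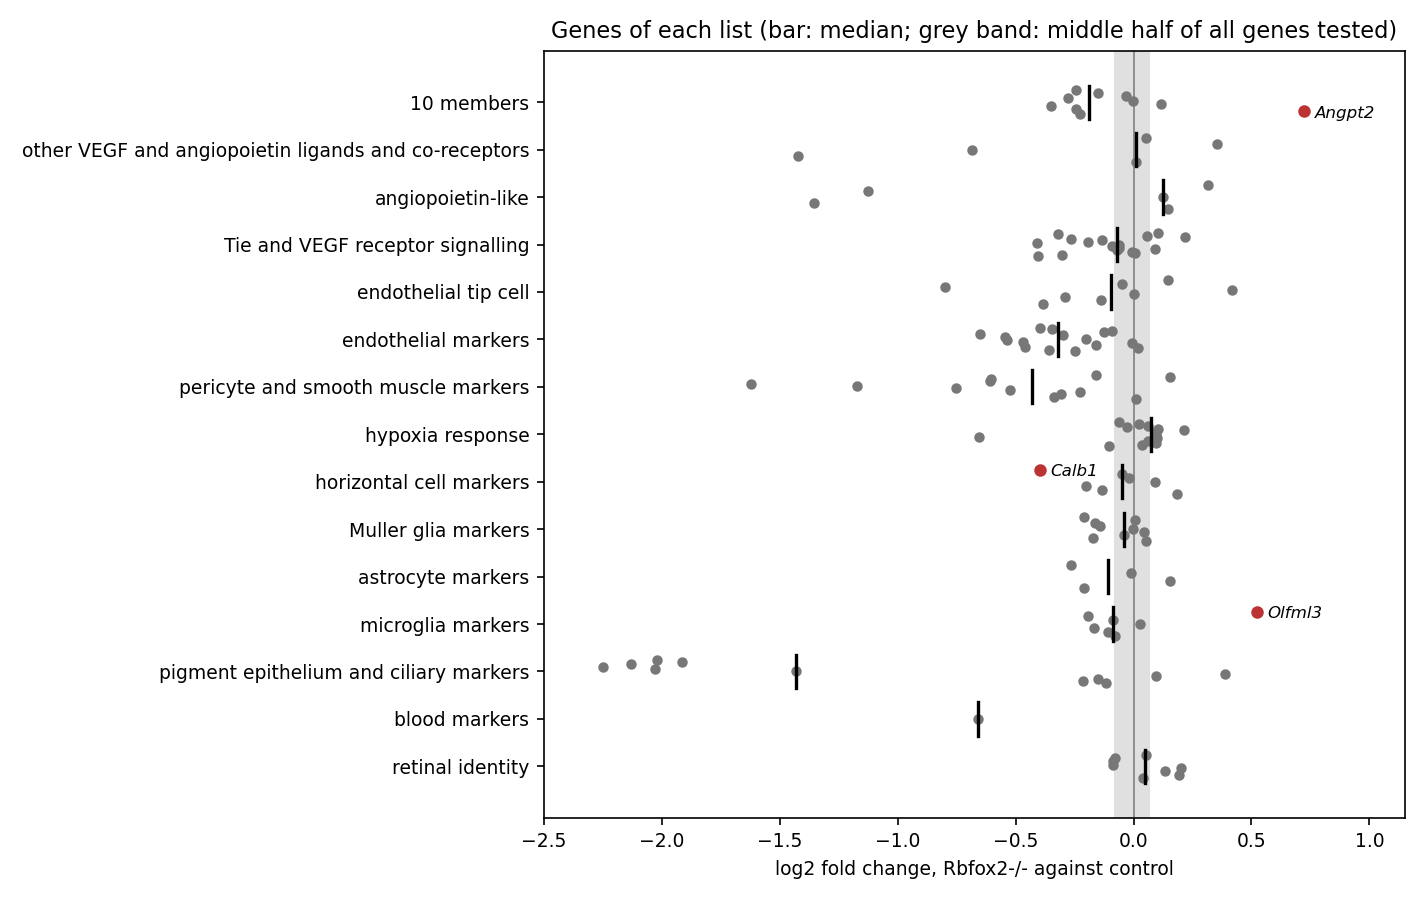
Log2 fold change, Rbfox2-/- against control, of every tested gene of each list (points, red and named where edgeR's adjusted p is under 0.05), with the median of the list (black bar) and the quartiles of all genes tested (grey band, −0.08 to 0.07). Angpt2, Calb1 and Olfml3 are the red points, and the endothelial median lies at −0.32.

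The genes whose level across the 8 mice was most like that of Angpt2, taking log2 CPM as a difference from the mean of the controls and the root mean square gap between the 2 genes as the measure, were Olfml3 (0.124), Micalcl (0.132), Esr1, the estrogen receptor (0.146), Misp (0.154) and 1700048O20Rik (0.172). Their log2 fold changes were 0.52, 0.87, 0.89, 0.81 and 0.69. The measure favours genes with a fold change like that of Angpt2, and no other member was among them.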

How the data were processed

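Poly(A) RNA libraries of 8 whole retinas were sequenced by the study, which mapped reads to mm10 with STAR, kept unique alignments and counted them with HTSeq. The submitters' processing notes name CASAVA 1.8.2 and edgeR. The table deposited by the authors holds raw counts, FPKM values and size-factor-scaled signal per mouse and their own log2 fold changes and p-values. The scaled signal and the authors' comparisons (also of single mice with the other group) were not used. The annotation version and strand setting are not given in the sources used here.

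Raw counts were filtered with filterByExpr (16797 of 17500 genes kept, all 10 members among them), normalized with TMM and tested with edgeR 4.0.16 quasi-likelihood (R 4.3.3), Rbfox2-/- against control, 4 mice each, with Benjamini-Hochberg adjustment over all genes and a threshold of 0.05. Levels are CPM on TMM library sizes, and FPKM as deposited. The step was tested on simulated data, where 93.5% of 200 genes changed 2-fold were recovered with 6 false calls among 16723 genes. Only well counted genes were changed, and no difference by sex was simulated. Smaller changes, such as the 1.65-fold of Angpt2, were not simulated, so the recovery does not apply to the members. All 28 pairs of libraries differed beyond counting noise. Alternatives used the likelihood ratio test, DESeq2 1.42.0, limma 3.58.1 (voom and trend), other scalings and filters, a sex covariate, a surrogate variable (sva 3.50.0), each mouse left out, and both mice with Xist left out. The endothelial denominators were chosen after seeing the data. The members and lists were chosen with earlier results of these data known. Besides the members, each list's genes past the threshold are named, or otherwise up to 3 with the lowest p, and the 5 genes most like Angpt2. Vegfd is listed as Figf. Positions, overlaps and UTRs are from GENCODE M21 (GRCm38). Floors cover counting error only.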

Additional observations from a re-analysis of the deposited data

How the results depend on the processing

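Over 19 alternatives the log2 fold change of Angpt2 stayed between 0.66 and 0.81, with an adjusted p under 0.05 in 10 of them (range 1.21e-09 to 0.262), and that of Flt1 between −0.32 and −0.23, with an adjusted p under 0.05 in 2 (DESeq2 and the edgeR likelihood ratio test, 0.0171). Against 11 genes called, the likelihood ratio test called 164, DESeq2 465, the fit with a sex covariate 4, the fit with a surrogate variable 5 and the fit without both mice with Xist 1. Leaving out single mice gave 5 to 35. Members called, 1 in the report, were 2 with the likelihood ratio test and DESeq2, 0 with the sex covariate, the surrogate variable and without both mice with Xist, and 0 to 1 with single mice left out. Genes called among the pathway and marker lists, 2 in the report, were 4 with the likelihood ratio test, 16 with DESeq2, 1 with the sex covariate, 0 without both mice with Xist and 1 to 2 with single mice left out. The log2 fold change of Vegfb reversed to 0.0037 with limma-voom, 0.0015 with limma-trend, 0.0243 with the sex covariate, 0.0749 with the surrogate variable and 0.0212 without both mice with Xist, with −0.0661 to 0.0397 over single mice left out. That of Kdr reversed to 0.0939 with the sex covariate, 0.0806 with the surrogate variable and 0.0915 without both mice with Xist, with −0.115 to 0.0135 over single mice left out. The cause of these changes was not tested, beyond the fewer mice where mice were left out. The other 8 members kept their sign throughout. Per exonic kilobase in place of FPKM, 4 neighbouring pairs were again separate, with Vegfb above Kdr in place of Vegfa above Vegfb, and the highest and lowest gene differed 165.4-fold. On that scale Angpt2 (mean 1.303) ranked above Flt4 (1.259), so the angiopoietins, Tek and Tie1 were not the lowest 4. No paired analysis was made, because each retina came from a different mouse and the labels name no pairs of mice. With 4 mice a group, of both sexes among the Rbfox2-/- mice alone, p-values cover the spread between these mice, and sex cannot be fully separated from genotype.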
